A study of Mus with 2 samples.

Results

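The genes of glyceroneogenesis and triglyceride synthesis were examined in nuclei of interscapular brown adipose tissue (iBAT). The 9 genes, of 32285 listed in the files, were *Pck1*, *Gk*, *Gpd1*, *Gpd2*, *Gpam*, *Agpat2*, *Lpin1*, *Dgat1* and *Dgat2*. They were chosen by name for their enzymatic steps, and they were not used to pick adipocyte nuclei. Single-nucleus RNA-sequencing (snRNA-seq) data came from C57BL/6 mice on normal chow at the age of 8 weeks. The *Wtap* flox/flox mice carried floxed *Wtap* alleles (exon 4 flanked by loxP sites) and no Cre. The *Wtap*-BKO mice had these floxed alleles together with *Ucp1*-iCre, an iCre that is active in cells that express the brown adipocyte gene *Ucp1*. *Wtap* encodes a subunit of the complex that writes m6A on mRNA. A single library was made per genotype, each from a pool of 4 mice whose nuclei carry no mark of their animal. There were thus no replicates, and no test between genotypes was made.

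Triglyceride is built on a backbone of glycerol 3-phosphate. Adipocytes make this backbone from glucose through dihydroxyacetone phosphate, from pyruvate and related precursors through glyceroneogenesis, and, where glycerol kinase is present as in brown fat, from free glycerol. Acyltransferases then add fatty acyl groups in sequence, a phosphatase removes the phosphate, and a last acyltransferase completes the triglyceride that is stored in lipid droplets and hydrolysed during thermogenesis.

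The *Wtap* flox/flox library held 9494 nuclei with a median of 954 unique molecular identifiers (UMIs), and the library labelled *Wtap*-BKO held 8772 nuclei with a median of 1306 UMIs. The libraries shared 20 nucleus barcodes. *Wtap* itself had 377 and 401 UMIs in adipocyte-like nuclei, or 49.8 and 48.2 UMIs per 1000000 UMIs (CPM), a log2 ratio of -0.05 (95% interval -0.25 to 0.16). These UMIs were counted over the whole gene and not over the floxed exon, so they do not check the genotype, which is taken from the labels. Adipocyte-like nuclei numbered 6710 and 4907 in 5 clusters, and all 12 adipocyte markers were detected in them in both libraries. Their mitochondrially encoded UMIs were 4.52% and 11.8% of the total, and 23.2% and 78.7% of them exceeded a share of 5%. In the same nuclei, the summed level of 8 macrophage markers was 34.9 and 106 CPM, that of 9 T cell markers 13.1 and 50.9 CPM, that of 7 fibroblast markers 70.1 and 155 CPM, and that of 8 B cell markers 14.8 and 96.3 CPM, of which *Igkc* made up 5.94 and 76.7 CPM. The summed level of 9 endothelial markers was 121 and 77.7 CPM and that of 6 pericyte markers 144 and 127 CPM. None of these 6 lists had a marker at 0. The 6 lymphatic endothelial markers were at 7.002 and 4.69 CPM, with *Lyve1* at 0 in the library labelled *Wtap*-BKO, and the other 5 lists lay between 0.661 and 116 CPM. The part of these lists in the differences below was not tested.

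To compare the genotypes, UMIs of each gene were summed over the adipocyte-like nuclei of each library. *Pck1* and *Agpat2* were more than 2-fold higher in the library labelled *Wtap*-BKO, whereas *Gk* and *Lpin1* were higher in the *Wtap* flox/flox library, by 2.05-fold and 1.88-fold. The other 5 genes differed by less than 1.5-fold. When the level in macrophage- and T-cell-like nuclei was subtracted as free RNA, *Gpd1* rather than *Lpin1* was past this limit, at log2 ratios of 1.13 and -0.54, so that 3 genes were higher and 1 lower. With a fold of 1.5 as the limit, 2 of the 9 genes were higher, beside 25.1% of all 14057 genes with at least 20 UMIs, and 2 were lower, beside 12.3% of all genes. The median log2 ratio of the 9 genes was -0.24, and that of all genes was 0.07. With the subtraction, the median of the 9 genes turned to 0.41. The shares and the median of all genes are those without the subtraction, and none with it is given. All intervals are 95% intervals of the counting error, and the spread between mice or preparations is not part of them.

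Among the genes that supply glycerol 3-phosphate, *Pck1* (ENSMUSG00000027513, chromosome 2, 173153073 to 173159274 in mm10) encodes the cytosolic phosphoenolpyruvate carboxykinase, the controlling enzyme of glyceroneogenesis in adipose tissue. In the adipocyte-like class, the *Wtap* flox/flox library held 5382 UMIs, a level of 711 CPM (692 to 730.2). The library labelled *Wtap*-BKO held 15579 UMIs, a level of 1874 CPM (1845 to 1904). The level was 2.64-fold higher in the library labelled *Wtap*-BKO, and the log2 ratio was 1.40 (1.35 to 1.44), or 2.23 after the subtraction of free RNA.

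*Gk* (ENSMUSG00000025059, chromosome X, 85701937 to 85776819) encodes glycerol kinase, which phosphorylates free glycerol. Its level was 381 CPM (367 to 395) in the *Wtap* flox/flox library and 186 CPM (177 to 195) in the library labelled *Wtap*-BKO. The *Wtap* flox/flox library was thus 2.05-fold higher, a log2 ratio of -1.04 (-1.13 to -0.95). Both genes feed the same glycerol 3-phosphate pool, and they differed between the libraries in opposite directions.

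*Gpd1* (ENSMUSG00000023019, chromosome 15, 99717587 to 99725014) encodes the cytosolic glycerol 3-phosphate dehydrogenase, which interconverts dihydroxyacetone phosphate and glycerol 3-phosphate. Its level was 1201 CPM and 1396 CPM in the *Wtap* flox/flox library and the library labelled *Wtap*-BKO, respectively, a log2 ratio of 0.22 (0.18 to 0.26). *Gpd2* (ENSMUSG00000026827, chromosome 2, 57237678 to 57370719) encodes the mitochondrial enzyme, which oxidises glycerol 3-phosphate and passes the electrons to the respiratory chain. Its level was 354 CPM and 299.98 CPM, a log2 ratio of -0.24 (-0.32 to -0.16). For the 2 enzymes of the glycerol 3-phosphate shuttle, *Gpd1* was thus above and *Gpd2* below the *Wtap* flox/flox level, whereas both were above it after the subtraction, at 1.13 and 0.13.

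Among the genes that add the acyl groups, *Gpam* (ENSMUSG00000024978, chromosome 19, 55067635 to 55127319) encodes a mitochondrial glycerol 3-phosphate acyltransferase, which makes lysophosphatidate. Its level was 428 CPM (413 to 443) in the *Wtap* flox/flox library and 327 CPM (315 to 339) in the library labelled *Wtap*-BKO, and the log2 ratio was -0.39 (-0.46 to -0.31). *Agpat2* (ENSMUSG00000026922, chromosome 2, 26593057 to 26604417) encodes the acyltransferase that turns lysophosphatidate into phosphatidate, and loss of this gene causes congenital lipodystrophy. Its level was 297 CPM (284 to 309) and 756 CPM (738 to 775), which was 2.55-fold higher in the library labelled *Wtap*-BKO, and the log2 ratio was 1.35 (1.28 to 1.42), or 2.28 after the subtraction. *Gpam* and *Agpat2*, which encode enzymes of consecutive steps, thus had log2 ratios on opposite sides of 0. After the subtraction, however, *Gpam* was near 0, at -0.065.

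*Lpin1* (ENSMUSG00000020593, chromosome 12, 16535669 to 16653903) encodes lipin 1, the phosphatase that turns phosphatidate into diacylglycerol and that also acts as a transcriptional coactivator. Its level was 590 CPM (573 to 607) in the *Wtap* flox/flox library and 314 CPM (302 to 327) in the library labelled *Wtap*-BKO. The *Wtap* flox/flox library was 1.88-fold higher, a log2 ratio of -0.91 (-0.98 to -0.84). *Lpin1* and *Agpat2*, which act one after the other, thus had log2 ratios on opposite sides of 0, with intervals that did not reach it.

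The last step is carried out by 2 unrelated diacylglycerol acyltransferases. *Dgat1* (ENSMUSG00000022555, chromosome 15, 76502012 to 76512021) had a level of 506 CPM and 546 CPM in the *Wtap* flox/flox library and the library labelled *Wtap*-BKO, and the log2 ratio was 0.11 (0.05 to 0.17). *Dgat2* (ENSMUSG00000030747, chromosome 7, 99153663 to 99182713) had 1014 CPM and 829 CPM, a log2 ratio of -0.29 (-0.34 to -0.24). The directions of *Dgat2* and *Gpd2* turned when the level in macrophage- and T-cell-like nuclei was subtracted, to log2 ratios of 0.41 and 0.13.

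Mitochondrially encoded UMIs differed between the libraries, so the ratios were also taken within 4 bins of their share per nucleus (below 2.5%, 2.5 to 5%, 5 to 10% and 10 to 25%). The log2 ratio of *Pck1* was between 1.43 and 1.64 in the 4 bins, and that of *Agpat2* between 1.06 and 1.38. The log2 ratio of *Gk* was between -1.16 and -0.59, and that of *Lpin1* between -0.77 and -0.34. Each of these 4 genes thus kept its direction in every bin, with intervals that did not reach 0, but *Lpin1* was nearer 0 in each bin than in all nuclei and was within 1.5-fold in 2 bins, at -0.34 below 2.5% and -0.56 at 5 to 10%. *Gpd1*, *Dgat1* and *Dgat2* also kept their directions, at 0.15 to 0.24, 0.16 to 0.48 and -0.29 to -0.17, respectively. The intervals of *Gpd2* reached 0 in all 4 bins, at log2 ratios of -0.17 to -0.01, and *Gpam* was between -0.48 and -0.12, with intervals that reached 0 in 2 bins. In the bin below 2.5%, 2449 nuclei of the *Wtap* flox/flox library were set against 221 of the library labelled *Wtap*-BKO, and in the bin of 10 to 25%, 544 against 2079. The 61 and 353 adipocyte-like nuclei at 25% or more were in no bin. Among them the 4 genes had the same directions, at 1.34 for *Pck1*, 2.34 for *Agpat2*, -0.92 for *Gk* and -1.07 for *Lpin1*, whereas *Dgat2* was on the other side of 0, at 0.58 (0.16 to 1.03).

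**Figure D1:**
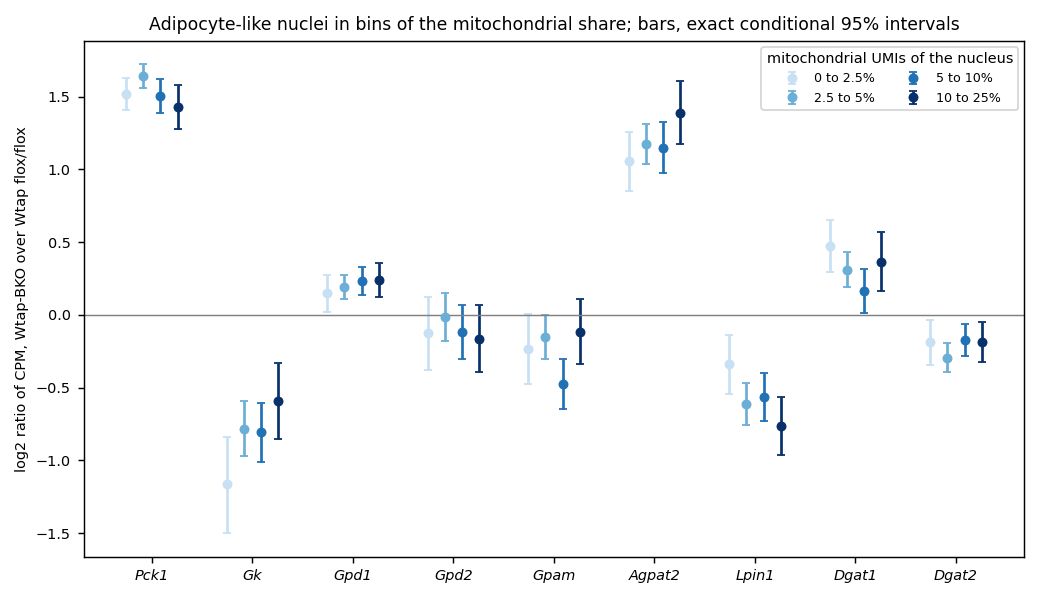
Log2 ratio of CPM (y axis, *Wtap*-BKO label over *Wtap* flox/flox) of each gene (x axis) in adipocyte-like nuclei, in 4 bins of the share of mitochondrially encoded UMIs per nucleus. Points are the ratio in a bin and bars are exact conditional 95% intervals; *Pck1* lies between 1.43 and 1.64 and *Gk* between -1.16 and -0.59 in all bins.

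The adipocyte-like nuclei fell into 5 clusters, which were formed without the 9 genes among the variable features. *Kng2*, *Zfp641*, *Gpr135*, *Xrcc6* and *Lgals4* led cluster 0. *Gmpr*, *Lncbate10*, *Trim67*, *Lgr6* and *Gm10649* led cluster 1. Mitochondrially encoded genes led cluster 2, followed by *Cox6a1*, *Mrpl34*, *Ndufb9*, *Cebpa* and *Chchd1*. *Slc7a10*, *9330159F19Rik*, *Chst1*, *Cyp2e1* and *Ofcc1* led cluster 8, and *Gbp10*, *Gm4841*, *F830016B08Rik*, *Gbp6* and *Gm4951* led cluster 10. Clusters 8 and 10 were the smallest, with 210 and 134 nuclei from *Wtap* flox/flox mice and 508 and 338 nuclei labelled *Wtap*-BKO.

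*Pck1* was higher in the library labelled *Wtap*-BKO in each of the 5 clusters. In the *Wtap* flox/flox library its level was 709.6, 702 and 664 CPM in clusters 0, 1 and 2, 1176 CPM in cluster 8 and 548 CPM in cluster 10. In the library labelled *Wtap*-BKO the levels were 1967, 1993, 1575, 2176 and 1576 CPM in the same order. The log2 ratio was lowest in cluster 8, at 0.89 (0.72 to 1.06), where the *Wtap* flox/flox level was highest, and reached 1.52 (1.21 to 1.85) in cluster 10. *Agpat2* was also higher in each cluster, with log2 ratios from 0.86 in cluster 10 to 1.59 in cluster 2.

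*Gk* was lower in the library labelled *Wtap*-BKO in each cluster. In the *Wtap* flox/flox library its level was 394, 419, 308, 156 and 365 CPM in clusters 0, 1, 2, 8 and 10. In the library labelled *Wtap*-BKO it was 182, 257, 138, 68.6 and 232 CPM. The lowest level of both libraries was in cluster 8, and the log2 ratios lay between -1.18 in cluster 8 and -0.65 in cluster 10. *Lpin1* was lower in each cluster as well, with log2 ratios between -1.12 in cluster 2 and -0.89 in cluster 0. *Gpam* was below 0 in each cluster, between -0.94 in cluster 10 and -0.17 in cluster 8.

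The smaller differences of the remaining genes were less even across clusters. *Gpd1* was at a log2 ratio of 0.23 to 0.38 in clusters 0, 1, 2 and 8, but at -0.32 (-0.56 to -0.08) in cluster 10. *Dgat2* was at -0.37 to -0.09 in clusters 0, 1, 2 and 10, but at 0.30 (0.10 to 0.51) in cluster 8. *Gpd2* was at -0.06 and 0.06 in clusters 0 and 1, the clusters with the most *Wtap* flox/flox nuclei, and at -0.44, -0.38 and -0.86 in clusters 2, 8 and 10. *Dgat1* lay between -0.13 in cluster 2 and 0.28 in cluster 10.

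**Figure D2:**
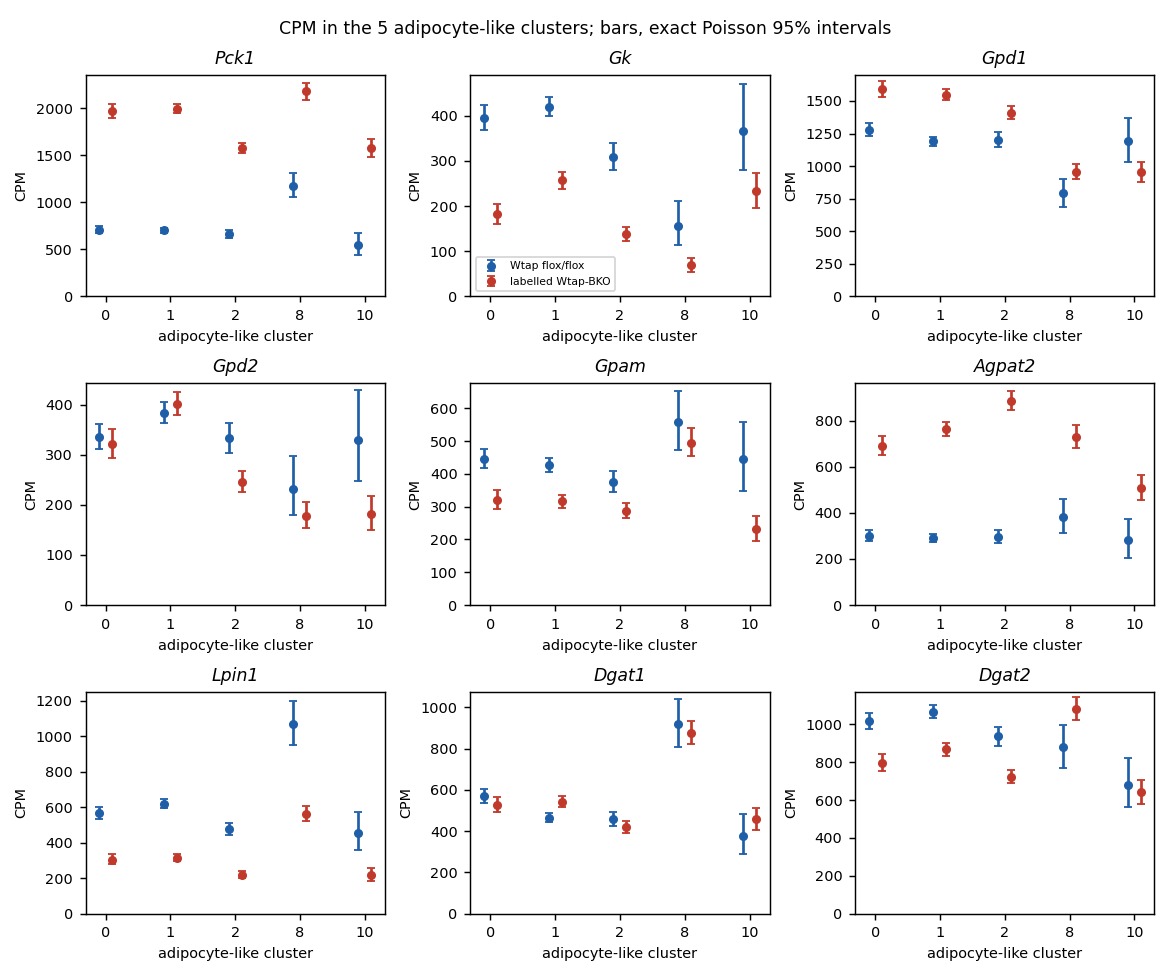
Level of each gene (CPM, y axis, from 0) in the 5 adipocyte-like clusters (x axis) of the *Wtap* flox/flox library (blue) and the library labelled *Wtap*-BKO (red). Points are sums over the nuclei of a cluster and bars are exact Poisson 95% intervals; *Gk* is lowest in cluster 8 in both libraries, at 156 and 68.6 CPM, and *Lpin1* is highest there, at 1070 and 563 CPM.

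Cluster 8 was compared with cluster 1, which had the highest median depth of the 5 clusters. This comparison between clusters is a description, since the clusters were formed from the same nuclei. *Lpin1* and *Dgat1* were higher in cluster 8 in both libraries. *Lpin1* was at 1070 CPM in cluster 8 and 618 CPM in cluster 1 of the *Wtap* flox/flox library, a log2 difference of 0.79 (0.61 to 0.97), and at 563 and 316 CPM in the library labelled *Wtap*-BKO, a difference of 0.83 (0.68 to 0.98). *Dgat1* was at 918 and 465 CPM in cluster 8 and cluster 1 of the *Wtap* flox/flox library, and at 877 and 541 CPM in the library labelled *Wtap*-BKO. *Gpam* was higher in cluster 8 by 0.39 (0.14 to 0.63) and 0.65 (0.49 to 0.80) on the log2 scale in the 2 libraries.

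*Gk*, *Gpd1* and *Gpd2* were lower in cluster 8 than in cluster 1 in both libraries. The log2 differences of *Gk* were -1.43 (-1.90 to -0.99) and -1.90 (-2.26 to -1.56). Those of *Gpd1* were -0.59 and -0.69, and those of *Gpd2* were -0.72 and -1.17. *Pck1* was higher in cluster 8 by 0.74 (0.57 to 0.91) in the *Wtap* flox/flox library, but by 0.13 (0.06 to 0.19) in the library labelled *Wtap*-BKO. *Agpat2* was at 0.40 (0.10 to 0.69) and -0.07 (-0.18 to 0.05), and *Dgat2* at -0.28 (-0.47 to -0.09) and 0.32 (0.22 to 0.42).

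With a fold of 1.5 as the limit, 3 of the 9 genes were higher and 3 lower in cluster 8 of the *Wtap* flox/flox library, beside 19.3% and 21.1% of all genes. In the library labelled *Wtap*-BKO, 3 were higher and 3 lower as well, beside 14.1% and 18.4% of all genes. Of the wider pathway, *Gpat3*, a glycerol 3-phosphate acyltransferase of the endoplasmic reticulum, was at 218 and 58.8 CPM in clusters 8 and 1 of the *Wtap* flox/flox library. It was at 299.8 and 65.3 CPM in the library labelled *Wtap*-BKO, which gave log2 differences of 1.89 (1.45 to 2.31) and 2.20 (1.94 to 2.46). *Aqp7*, which encodes a glycerol channel, was at -0.37 (-0.91 to 0.12) and -1.19 (-1.45 to -0.93).

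The balance of 2 genes within the same nuclei was described by the ratio of their UMIs, which does not depend on the total of the nuclei. It is compared only between groups of nuclei, since a ratio of UMIs of 2 genes is not a ratio of transcripts. The adipocyte-like nuclei held 1.87 *Pck1* UMIs per *Gk* UMI (1.78 to 1.95) in the *Wtap* flox/flox library, whereas the ratio was 10.1 (9.58 to 10.6) in the library labelled *Wtap*-BKO. Cluster 8 stood apart in both, with 7.53 (5.47 to 10.6) and 31.7 (25.2 to 40.4), whereas the other 4 clusters lay at no more than 2.15 and 11.4. *Agpat2* UMIs per *Lpin1* UMI were 0.503 (0.478 to 0.529) and 2.41 (2.30 to 2.52). *Gpd1* UMIs per *Gpd2* UMI were 3.39 and 4.65, and *Dgat2* UMIs per *Dgat1* UMI were 2.004 and 1.52.

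To examine the other lineages, endothelial-, pericyte-, fibroblast-, macrophage- and T-cell-like nuclei were analysed in the same way. Each of the 9 genes was highest in adipocyte-like nuclei in both libraries among these 6 classes. The interval of the adipocyte-like level overlapped that of the next class once, for *Agpat2* in the *Wtap* flox/flox library, where T-cell-like nuclei held 209 CPM (140 to 300.4). Each library had 45 pairs of neighbouring levels, with the adipocyte-like level and the next class among them. Intervals overlapped in 37 pairs of the *Wtap* flox/flox library and in 32 of the library labelled *Wtap*-BKO. Below the adipocyte-like level, the intervals of all neighbouring classes overlapped in the *Wtap* flox/flox library. In the library labelled *Wtap*-BKO they overlapped except for a pair each of *Pck1*, *Gpd1*, *Agpat2* and *Dgat2*. B-cell-like nuclei were too few in the *Wtap* flox/flox library, at 12, and were not compared.

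*Gpd1* was the least restricted to adipocyte-like nuclei in the *Wtap* flox/flox library. Its level there was 1201 CPM in adipocyte-like nuclei, 976 CPM (925 to 1030) in endothelial-like and 644 CPM in fibroblast-like nuclei. *Gk* differed more between classes, with 381 CPM in adipocyte-like nuclei and 101 to 180 CPM in the other classes. Against the other named nuclei together, the adipocyte-like level was 1.36-fold higher (1.30 to 1.42) for *Gpd1* and 2.94-fold higher (2.63 to 3.30) for *Gk*, with the remaining 7 genes between them. Without nuclei over 5% mitochondrial UMIs, *Lpin1* rather than *Gk* was at the upper end, at 2.30-fold, and *Gpd1* was at 1.56-fold. With all nuclei, 8 of the 9 genes were at least 1.5-fold higher in adipocyte-like nuclei, beside 23.1% of all genes. The count was 9 without nuclei over 5% mitochondrial UMIs and 7 with a minimum of 1000 UMIs, for which no share of all genes is given.

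In the library labelled *Wtap*-BKO all 9 genes were at least 1.5-fold higher in adipocyte-like than in the other named nuclei, beside 19.6% of all genes. The folds ran from 2.18 (2.07 to 2.30) for *Agpat2* to 3.36 (3.05 to 3.70) for *Gpam*. *Pck1* was at the upper end without nuclei over 5% mitochondrial UMIs, at 5.197-fold, and without the highest doublet scores, at 4.48-fold. The fold of *Pck1* differed most between the libraries. *Pck1* was 1.63-fold higher (1.53 to 1.74) in adipocyte-like than in other named nuclei from *Wtap* flox/flox mice, and 3.19-fold higher (3.07 to 3.32) in the library labelled *Wtap*-BKO.

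**Figure D3:**
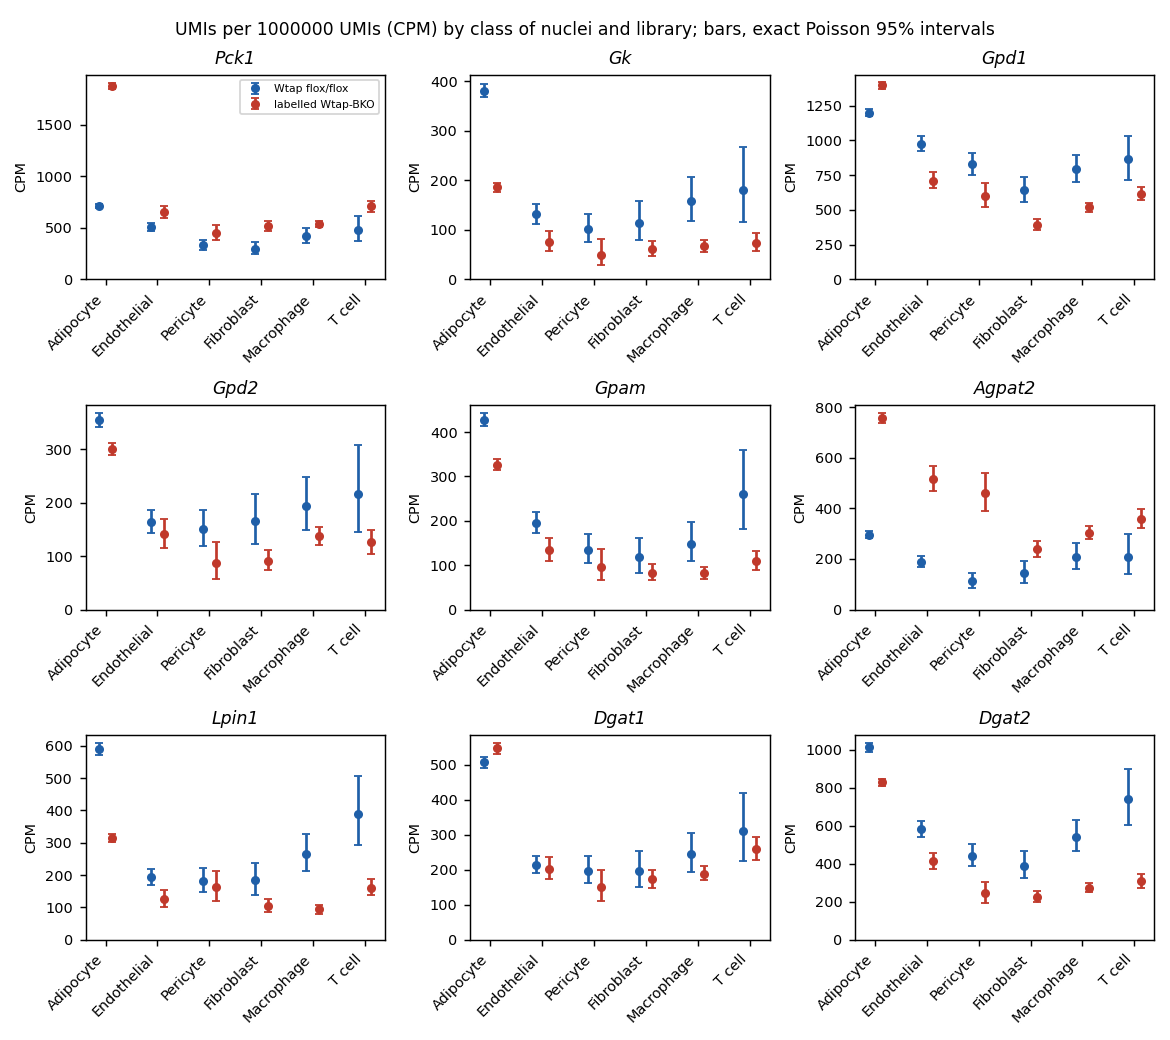
Level of each gene (CPM, y axis, from 0) in 6 classes of nuclei (x axis) of the *Wtap* flox/flox library (blue) and the library labelled *Wtap*-BKO (red). Points are sums over the nuclei of a class and bars are exact Poisson 95% intervals; adipocyte-like nuclei are highest in every panel, and *Gpd1* falls least between classes in the *Wtap* flox/flox library, from 1201 to 644 CPM.

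UMIs of an adipocyte gene in another class can come from RNA that was free in the suspension of nuclei. As a measure of this, the summed level of the 12 adipocyte markers in the other named nuclei was 44.8% of the adipocyte-like level in the *Wtap* flox/flox library and 32.0% in the library labelled *Wtap*-BKO. The same markers named the adipocyte-like clusters, so the naming set part of this contrast. The level of the 9 genes there was 34.0% (*Gk*) to 73.5% (*Gpd1*) and 29.8% (*Gpam*) to 45.8% (*Agpat2*) of the adipocyte-like level. Single markers spanned a wider range than the 9 genes. Adipocyte-like nuclei were 1.03-fold (*Adipoq*) to 3.19-fold (*Ppara*) above the other named nuclei in the *Wtap* flox/flox library, and 2.01-fold (*Adipoq*) to 3.77-fold (*Ppara*) in the library labelled *Wtap*-BKO. Whether any of the other classes transcribed the 9 genes was not tested.

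The pairs of genes gave a further view of these UMIs. In macrophage- and T-cell-like nuclei, which serve as the background for adipocyte RNA here, *Pck1* UMIs per *Gk* UMI were 2.67 (2.04 to 3.52) in the *Wtap* flox/flox library but 8.58 (7.40 to 10.001) in the library labelled *Wtap*-BKO. *Agpat2* UMIs per *Lpin1* UMI were 0.686 and 2.75 there. Both ratios were thus higher in the library labelled *Wtap*-BKO in these nuclei too, as they were in adipocyte-like nuclei.

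The share of nuclei with a UMI was compared after each nucleus was thinned to 1000 UMIs, which left 3285 and 3821 adipocyte-like nuclei and left out 3425 and 1086. *Pck1* was found in 47.1% (45.4 to 48.8) of adipocyte-like nuclei in the *Wtap* flox/flox library and in 78.4% (77.0 to 79.7) in the library labelled *Wtap*-BKO. In macrophage- and T-cell-like nuclei the shares were 35.9% (28.9 to 43.3) and 36.3% (33.5 to 39.2). Without thinning, the shares of adipocyte-like nuclei were 48.6% and 85.7%, and those of macrophage- and T-cell-like nuclei were 32.8% and 37.3%, at median depths of 991 and 1476 against 916 and 1156 UMIs.

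For *Gk* the thinned shares were 29.4% and 14.5% of adipocyte-like nuclei and 15.8% and 5.33% of macrophage- and T-cell-like nuclei. For *Lpin1* they were 41.8% and 24.0% against 25.5% and 10.7%, and for *Agpat2* 25.9% and 49.4% against 18.5% and 22.8%. All 9 genes were found in a larger share of adipocyte-like than of macrophage- and T-cell-like nuclei in both libraries at this depth. The shares of *Agpat2* had overlapping intervals in the *Wtap* flox/flox library, 24.4 to 27.4 and 13.1 to 24.9, whereas those of *Gpd1* were 67.3% (65.6 to 68.9) and 57.1% (49.6 to 64.3). At 2000 UMIs, where 40 macrophage- and T-cell-like nuclei of that library remained, *Gpd1* was found in 86.9% of adipocyte-like nuclei and in 36 of these 40 (76.3% to 97.2%), and *Gpd2* in 46.3% and in 21 of the 40. At this depth, neither gene was thus found in a larger share of adipocyte-like nuclei in that library. At 1000 UMIs an adipocyte-like nucleus held a mean of 3.72 of the 9 genes (SD 1.42 over nuclei) in the *Wtap* flox/flox library and 3.77 (SD 1.44) in the library labelled *Wtap*-BKO.

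Between the libraries, the 5 other classes were alike in the signs of their log2 ratios, although 9 of the 45 intervals reached 0. *Pck1* and *Agpat2* were above 0 and the other 7 genes below 0 in each class, except that *Pck1* in endothelial-like nuclei turned to -0.090 under median-of-ratios scaling. Without nuclei over 5% mitochondrial UMIs, *Pck1* (-0.20) and *Agpat2* (-0.082) turned in macrophage-like nuclei, and without the highest doublet scores *Pck1* was at -0.0036 in endothelial-like and -0.076 in T-cell-like nuclei. *Lpin1* turned to 0.39 in pericyte-like nuclei without the highest doublet scores, and *Dgat1* to 0.026 in T-cell-like nuclei with a minimum of 1000 UMIs. At a clustering resolution of 1.0, *Gpd2* (0.26) and *Dgat1* (0.017) turned in T-cell-like nuclei. The removal of nuclei over 5% mitochondrial UMIs lowered 18 of the 45 log2 ratios by more than 1.5-fold. *Agpat2* had the log2 ratios 2.03 (1.59 to 2.49) in pericyte-like nuclei, from 113 to 460.1 CPM, and 1.45 (1.23 to 1.68) in endothelial-like nuclei, where it was 0.38 without nuclei over 5% mitochondrial UMIs. In T-cell-like nuclei *Agpat2* was at 0.77, but at 2.73 at a resolution of 1.0. *Gk* was between -1.29 in T-cell-like and -0.79 in endothelial-like nuclei. Without nuclei over 5% mitochondrial UMIs *Gk* was at -1.53 in endothelial-like, -1.71 in fibroblast-like and -2.40 in pericyte-like nuclei. In T-cell-like nuclei it was at -2.11 without the highest doublet scores and -2.06 at a resolution of 1.0. Intervals are not given for these values, and UMIs were few. Before any alternative, *Gk* had 16 UMIs in pericyte-like nuclei labelled *Wtap*-BKO and 25 in T-cell-like nuclei from *Wtap* flox/flox mice. The intervals of *Gpd2* in endothelial-like nuclei (-0.56 to 0.11) and of *Gpam* in fibroblast-like (-1.08 to 0.10) and pericyte-like nuclei (-1.14 to 0.14) reached 0. *Lpin1* was lowest in macrophage-like nuclei, at -1.50 (-1.88 to -1.11), and its interval reached 0 in pericyte-like nuclei, at -0.17 (-0.69 to 0.33).

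*Gpd1* differed from its direction in adipocyte-like nuclei. It was lower in the library labelled *Wtap*-BKO in each of the other 5 classes, with log2 ratios between -0.71 in fibroblast-like and -0.46 in pericyte-like nuclei. In fibroblast-like nuclei it was at -1.38 without nuclei over 5% mitochondrial UMIs. In endothelial-like nuclei, for example, its level was 976 CPM in the *Wtap* flox/flox library and 711 CPM in the library labelled *Wtap*-BKO. *Dgat1* was also on the other side of 0, at -0.40 to -0.08, with intervals that reached 0 in all 5 classes. Without nuclei over 5% mitochondrial UMIs it was at -0.91 in endothelial-like and -0.99982 in macrophage-like nuclei.

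Counted with a fold of 1.5, endothelial-like nuclei had 2 of the 9 genes lower and 1 higher, beside 7.23% and 33.4% of all genes. Pericyte-like nuclei had 3 lower and 1 higher, beside 12.2% and 22.2%, and fibroblast-like nuclei had 5 lower and 2 higher, beside 13.6% and 23.1%. Macrophage-like nuclei had 5 lower, beside 16.7%, and 0 higher, beside 25.4%. T-cell-like nuclei had 5 lower and 1 higher, beside 19.1% and 29.7%. These counts depended on the processing. The shares of all genes were taken before any alternative, and none is given for the counts under the alternatives. In endothelial-like nuclei, 6 genes were lower under median-of-ratios scaling, 5 without the highest doublet scores, 7 without nuclei over 5% mitochondrial UMIs and 0 with a minimum of 1000 UMIs. Pericyte-like nuclei had 2 to 6 genes lower over the alternatives, and the other 3 classes 4 to 7. Without nuclei over 5% mitochondrial UMIs, 0 genes were higher in endothelial-, fibroblast- and T-cell-like nuclei. The median log2 ratio of all genes was 0.35 in endothelial-like nuclei and 0.08 to 0.13 in the other 4 classes, while that of the 9 genes was between -0.78 and -0.46.

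**Figure D4:**
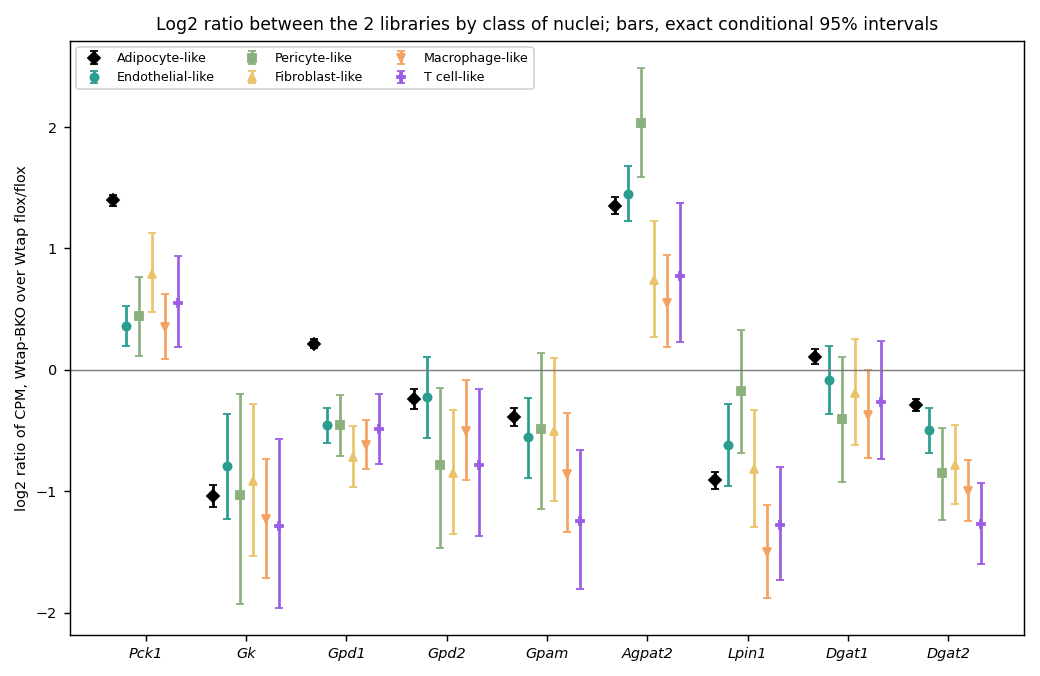
Log2 ratio of CPM (y axis, *Wtap*-BKO label over *Wtap* flox/flox) of each gene (x axis) in 6 classes of nuclei. Points are ratios and bars are exact conditional 95% intervals; *Pck1* and *Agpat2* lie above 0 in all classes as plotted (*Pck1* turned in endothelial-like nuclei to -0.090 under median-of-ratios scaling, and the signs in endothelial-, macrophage- and T-cell-like nuclei also turned when nuclei were removed by mitochondrial share or doublet score), and *Gpd1* lies at 0.22 in adipocyte-like nuclei and below 0 in the others.

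A cluster rich in mitochondrially encoded UMIs stayed unnamed, with 418 and 339 nuclei and a median mitochondrial share of 34.5% and 44.8%. *Agpat2* was at 313 CPM in this cluster of the *Wtap* flox/flox library and at 1299 CPM in that of the library labelled *Wtap*-BKO, and the log2 ratio was 2.05 (1.76 to 2.35). The latter was the highest *Agpat2* level of any class or cluster measured. *Pck1* was at 566 and 557 CPM in the same cluster, a log2 ratio of -0.02 (-0.30 to 0.25).

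The wider pathway was described with a list of 29 genes, of which 28 were in the files and 26 had at least 20 UMIs in adipocyte-like nuclei. Of the 26, 7 were at least 1.5-fold higher and 2 at least 1.5-fold lower in the library labelled *Wtap*-BKO, beside 25.1% and 12.3% of all genes. Their median log2 ratio was 0.05. Of the 4 further genes of glycerol 3-phosphate supply, 3 passed the limit, all of them higher. *Aqp7* was at 158 and 261.4 CPM, a log2 ratio of 0.73 (0.62 to 0.83). *Pck2*, the mitochondrial carboxykinase, was at 30.1 and 52.6 CPM, a log2 ratio of 0.80 (0.57 to 1.04), and *Pcx*, which makes oxaloacetate from pyruvate, was at 353 and 538 CPM, a log2 ratio of 0.61 (0.54 to 0.67). Under median-of-ratios scaling *Pcx* was at 0.56 and no longer passed.

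Of the genes that supply acyl-CoA, *Dbi*, which encodes an acyl-CoA-binding protein, was at 240.2 and 537 CPM, a log2 ratio of 1.16 (1.08 to 1.24). The 4 acyl-CoA synthetases were below 0, from -0.45 for *Acsl1* to -0.17 for *Acsl5*, whose interval (-0.46 to 0.12) reached 0. None of the 4 passed the limit, but *Acsl4* turned to 0.071 without nuclei over 5% mitochondrial UMIs. Of 6 further acyltransferases, *Agpat4* passed it with 12 and 24 UMIs and an interval that reached 0 (log2 ratio 0.86, -0.19 to 1.999). *Gpat4* was at 898 and 640.1 CPM, a log2 ratio of -0.49 (-0.54 to -0.44), and *Gpat3* at 63.3 and 91.1 CPM, a log2 ratio of 0.53 (0.36 to 0.69). *Gpat3* passed the limit with mitochondrial UMIs left out of the denominator (0.64) and without nuclei over 5% mitochondrial UMIs (1.25).

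Of the other phosphatidate phosphatases, *Plpp3* was at 42.3 and 91.8 CPM, a log2 ratio of 1.12 (0.93 to 1.31), whereas *Lpin2*, a relative of *Lpin1*, was at 24.8 and 28.1 CPM, a log2 ratio of 0.18 (-0.10 to 0.47), which turned to -0.013 without nuclei over 5% mitochondrial UMIs. The branch from phosphatidate to CDP-diacylglycerol, which leads to phospholipids, was split. *Cds1* was at 75.8 and 41.1 CPM, a log2 ratio of -0.88 (-1.08 to -0.69), and *Cds2* at 19.0 and 29.7 CPM, a log2 ratio of 0.64 (0.34 to 0.95). *Mogat2* passed the limit as lower with 17 and 12 UMIs, with an interval from -1.84 to 0.51, and no longer passed with mitochondrial UMIs left out of the denominator (-0.52), with a minimum of 1000 UMIs (-0.44) or without the highest doublet scores (-0.22). The lipid droplet genes *Bscl2* and *Fitm2* were at log2 ratios of -0.01 and 0.25. *Bscl2* turned to 0.11 with mitochondrial UMIs left out of the denominator and to 0.14 with a minimum of 1000 UMIs.

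**Figure D5:**
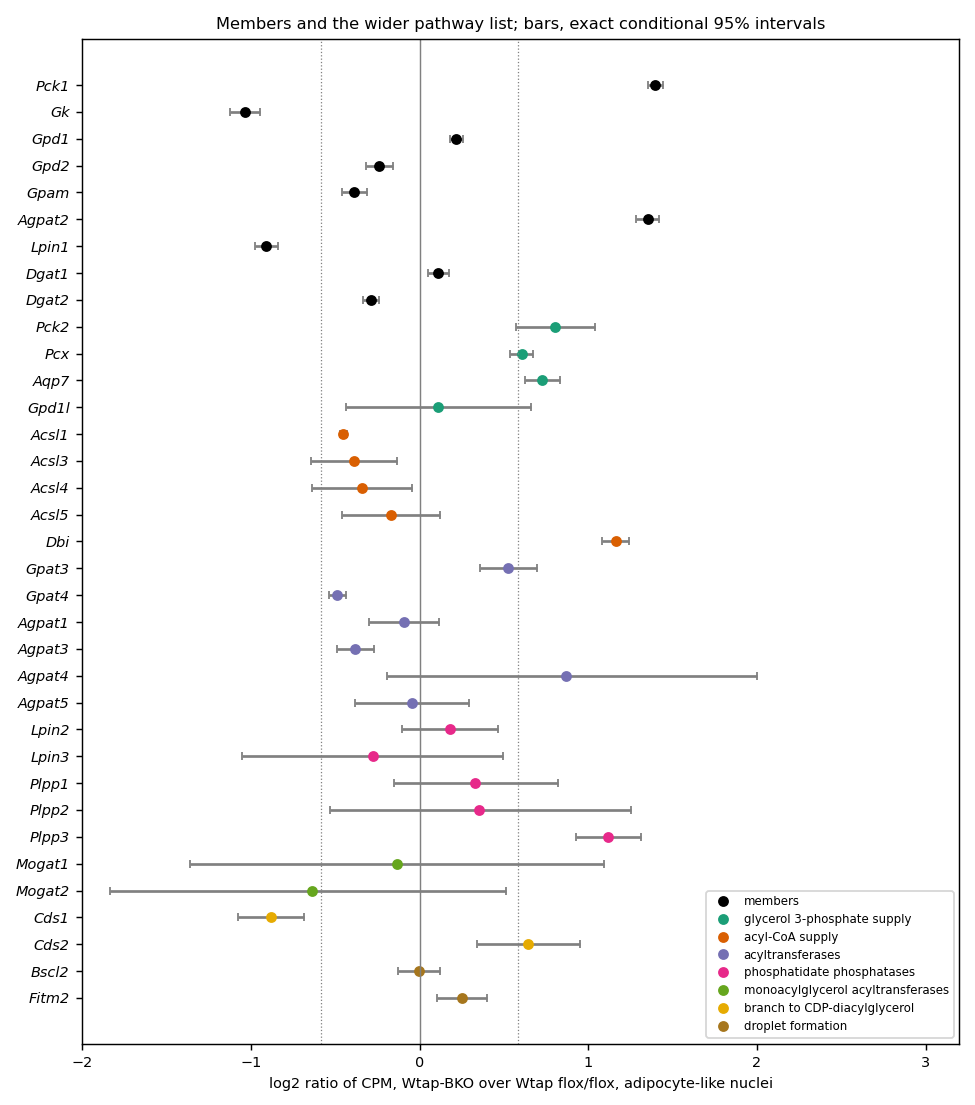
Log2 ratio of CPM (x axis, *Wtap*-BKO label over *Wtap* flox/flox) in adipocyte-like nuclei for the 9 genes (black) and the 26 further pathway genes with at least 20 UMIs (y axis), coloured by role. Bars are exact conditional 95% intervals and dotted lines mark a fold of 1.5; *Pck1* (1.40) and *Agpat2* (1.35) lie farthest to the right and *Gk* (-1.04) farthest to the left.

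The 9 genes did not vary as 1 group. Across the 10 profiles of adipocyte-like clusters and libraries, *Gpam* and *Lpin1* were the closest pair, with a Pearson's r of 0.94 of log2 CPM, followed by *Pck1* and *Agpat2* with 0.93. *Pck1* and *Gk* had an r of -0.77. Profiles of a library share its depth and its free RNA, so these values are a description.

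Across all 24 profiles of clusters and libraries with at least 50 nuclei, the genes most like each of the 9 were taken from 4020 genes. *Pck1* was most like *Mknk2* (r = 0.96) and *Tmem120a* (0.93). *Gk* was most like *Esrrg* and *Slc22a5* (0.96 each), *Gpd1* like *Eci1* (0.91) and *Idh3a* (0.90), and *Gpd2* like *Slc25a20* (0.94) and *Etfdh* (0.93). *Gpam* was most like *Amy1* (0.95) and *Acsl1* (0.94), *Agpat2* like *Adipoq* (0.90) and *Arxes2* (0.89), and *Lpin1* like *Fam13a* (0.95) and *Fam214a* (0.94). *Dgat1* was most like *Ankef1* (0.97) and *Nrg4* (0.96), and *Acsl1* (0.91) was among the genes most like *Dgat2*. These profiles again share their libraries.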

How the data were processed

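Nuclei from frozen iBAT were processed by the authors with 10x 3′ v3.1 chemistry. The deposited values were raw UMI counts per gene and nucleus, made by the authors with Cell Ranger 5.0.0 per the file headers, on mm10 per the submitters' processing notes. No nucleus held fewer than 500 UMIs, and the libraries totalled 10770604 and 13945673 UMIs. The treatment of intronic reads was not given in the sources used here. Gene positions are those of the RefSeq table of the same build.

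Nuclei were clustered with Seurat 5.3.0 in R 4.3.3 with log-normalization, integration by canonical correlation analysis, 20 principal components and a resolution of 0.5 after the methods of the study, and with 2000 variable features set here. The 8 principal components that the methods also name were run as an alternative. The 9 genes, the pathway list and *Wtap* (39 genes in all) were left out of the variable features. Clusters were named from marker genes. The other classes each needed at least 3 of their markers, and 50% of them, at 2 times the CPM of the rest, and 1 among the cluster's 10 leading genes. Adipocyte-like clusters needed 50% of 12 markers at 1.5 times the CPM of the named clusters. After the data were seen, 38 and 18 nuclei led by skeletal muscle genes were taken out of the adipocyte-like clusters. The members and lists were chosen with earlier results of these data known.

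Within each class and library, the UMIs of a gene were added up and divided by the UMIs of all genes. CPM carry exact Poisson intervals, shares exact Clopper-Pearson intervals and log2 ratios exact conditional intervals. The intervals of the log2 ratios were tested on simulated Poisson counts, which hold the counting error only. The test therefore does not cover the spread between nuclei, mice or preparations. No nucleus was removed as a doublet: Scrublet in scanpy 1.11.5 called 3 and 0 nuclei, which was taken as a failure to work, so the highest 721 and 616 scores were removed as an alternative. Named were all 9 genes, the pathway genes past a fold of 1.5, the 5 leading genes of each adipocyte-like cluster and the 2 genes most like each member by Pearson's r of log2(CPM + 10) among genes of at least 50 CPM. One of the latter is not reported here. Some pathway genes and marker genes beside these were named after their values were seen. Sequences of the genes were not used here.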

Additional observations from a re-analysis of the deposited data

Results flagged for a closer look

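*Gpd1* was higher in the library labelled *Wtap*-BKO in adipocyte-like nuclei (log2 ratio 0.22), whereas it was lower in the other classes. The log2 ratios were -0.46 (-0.457088 before rounding) in endothelial-like, -0.61 in macrophage-like, -0.49 in T-cell-like, -0.71 in fibroblast-like and -0.456922 in pericyte-like nuclei. Within adipocyte-like nuclei, *Gpd1* was at -0.32 in cluster 10, the cluster led by *Gbp10*. *Dgat2* was at -0.29 in adipocyte-like nuclei as a whole and at 0.30 in cluster 8, the cluster led by *Slc7a10*. With 1 library per genotype, none of these differences between groups of nuclei was tested. The summed level of the 12 adipocyte markers in the other named nuclei was 44.8% of the adipocyte-like level in the *Wtap* flox/flox library and 32.0% in the library labelled *Wtap*-BKO, and its part in the ratios of the other classes was not tested.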

How the results depend on the processing

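No paired analysis was possible because each genotype had 1 library. In adipocyte-like nuclei, *Pck1*, *Gk*, *Gpd1*, *Gpam*, *Agpat2*, *Lpin1* and *Dgat1* kept their direction under all 9 alternatives, 8 of which were planned and 1 (skeletal muscle nuclei kept) added after the data were seen. The median of the 9 genes was -0.13 with mitochondrial UMIs left out of the denominator, which moved the median of all genes to 0.18. It was -0.094 without nuclei over 5% mitochondrial UMIs. It turned to 0.41 when the level in macrophage- and T-cell-like nuclei was subtracted as free RNA, as did *Gpd2* (0.13) and *Dgat2* (0.41). With this subtraction, 1 gene was past 1.5-fold as lower and 3 as higher: *Lpin1* (-0.54) no longer passed, *Gpd1* (1.13) did, and *Pck1* (2.23) and *Agpat2* (2.28) were farther from 0. *Gpam* was near 0 with it, at -0.065. Without the subtraction and with a fold of 2, 1 gene was lower (*Gk*), whereas *Pck1* (2.64-fold) and *Agpat2* (2.55-fold) were higher. Shares of all genes are not given for a fold of 2 or for the subtraction. The median of the pathway list was 0.17 with mitochondrial UMIs left out of the denominator and -0.011 without nuclei over 5% mitochondrial UMIs. Its count of lower genes was 1 with mitochondrial UMIs left out, with a minimum of 1000 UMIs or without the highest doublet scores, and 5 without nuclei over 5% mitochondrial UMIs. In the other classes, *Pck1* turned to -0.090 in endothelial-like nuclei under median-of-ratios scaling and, without the highest doublet scores, to -0.003557 in endothelial-like and -0.076 in T-cell-like nuclei. Without nuclei over 5% mitochondrial UMIs, *Pck1* (-0.20) and *Agpat2* (-0.082) turned in macrophage-like nuclei. *Lpin1* turned to 0.39 in pericyte-like nuclei without the highest doublet scores, *Dgat1* to 0.026 in T-cell-like nuclei with a minimum of 1000 UMIs, and *Gpd2* (0.26) and *Dgat1* (0.017) in T-cell-like nuclei at a resolution of 1.0. The causes were not tested. The subtraction was not run for the other classes.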
